A study of Mus musculus with 12 samples.

Results

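The TGF-beta and BMP pathway was followed through 41 genes in pancreatic tumors grown in young and old mice. The genes were taken by symbol from the deposited tables, which list 47643 genes, and comprise 7 ligand genes, 6 genes of ligand latency and activation, 8 receptor genes, 5 antagonist genes, 9 SMAD and corepressor genes and 6 target genes. All 41 were found, and 40 of them were among the 16013 genes abundant enough to be tested. Bulk poly(A) RNA sequencing covered tumor pieces of KPC4662, a cell line of mouse pancreatic ductal adenocarcinoma, with 6 libraries from young and 6 from old hosts, referred to here as Young tumor 1 to 6 and Old tumor 1 to 6. All 12 libraries share the tumor line, so the labelled difference between the groups is the age group of the host. The labels used here do not give ages, strain, sex, site of implantation or any other treatment, nor how many mice the pieces of an age came from. P-values therefore measure the spread between pieces.

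Ligands of this family are secreted dimers. TGF-beta is stored in the matrix in a latent form held by binding proteins and must be released before it acts, whereas BMPs and activins are held in check by secreted antagonists. Active ligand joins type I and type II receptor kinases, which phosphorylate receptor SMADs. These enter the nucleus with SMAD4 and regulate targets, among them the inhibitory SMADs that damp the signal. In pancreatic cancer the pathway is known both for restraining epithelial growth and for driving fibroblast activation and matrix production.

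Libraries held 17.8M to 24.1M counts. The labels name the cell type as epithelial, and the 7 epithelial markers summed to 4886 to 8593 TPM in the 12 libraries. TPM is scaled to a common sum per library and for gene length, and CPM to the TMM-scaled library total without gene length. Markers of other cells were present as well, with fibroblast markers at 472 to 3833 TPM and macrophage markers at 947 to 2435 TPM. In such bulk samples fewer cells of a type and less RNA per cell cannot be told apart. Old tumor 1 stood apart from the other old libraries in its stromal markers and also held the highest macrophage marker level. Its fibroblast markers summed to 3833 TPM, against at most 1640 TPM in the other old libraries and 477 to 1273 TPM in the young ones.

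No member passed the threshold of an adjusted p under 0.05 in edgeR, where 2.26% of all tested genes did (362 of 16013), 0.793% higher and 1.47% lower in old tumors. At an unadjusted p under 0.05 stood 4 of 40 members (10%), against 21.1% of all tested genes. Of these 4, Inhbb and Tgfbr2 were higher in old tumors, as were 10.7% of all tested genes, and Pmepa1 and Id2 were lower, as were 10.4%. The count at an unadjusted p under 0.05 was 8 of 40 (20%) without Old tumor 1, against 24.0% of all tested genes, 7 with limma-voom against 24.3%, and 9 and 10 on TPM values with pseudocounts of 1 and 0.1 against 25.9% and 25.8%. DESeq2 called 1 member, Pmepa1, against 8.34% of the genes it tested, and limma-voom called 0, against 6.1% of all tested genes. The median log2 fold change of old over young was 0.03 over the 40 members, with 22 above and 18 below 0, and 0.03 over all tested genes. The CPM ranges of the ages did not overlap for 1 member, Pmepa1 (2.5% of members against 2.97% of all tested genes, 1.97% with old below young). For Pmepa1 the margin was small and did not hold on library totals without TMM scaling. With the trend of fold change on gene length removed, 6 of 40 members (15%) had an unadjusted p under 0.05, against 16.7% of all tested genes, and 17 lay above and 23 below 0. For 26 of the 40 members (65%) the 95% interval of the fold change lay within 1.5-fold in both directions, as it did for 58.0% of all tested genes.

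**Figure D1:**
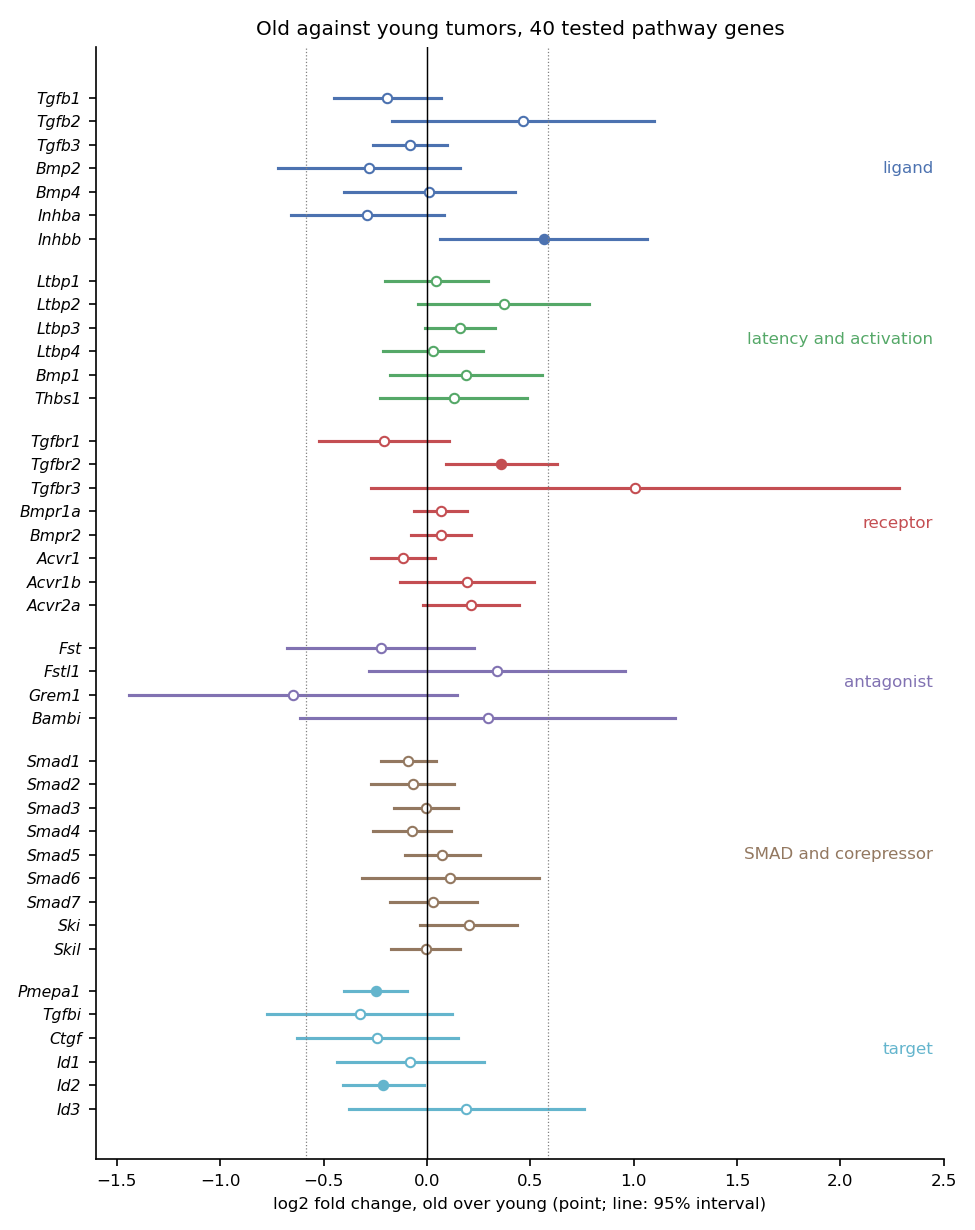
Log2 fold change of old over young tumors for the 40 tested genes, grouped by role. Points are edgeR estimates, lines their 95% intervals, and dotted lines a 1.5-fold difference. Filled points mark the 4 genes with an unadjusted p under 0.05 (Inhbb, Tgfbr2, Pmepa1 and Id2), none of which passed after adjustment. The intervals of all 9 SMAD and corepressor genes stay between the dotted lines, while Tgfbr3 and Grem1 have wide ones.

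Upstream sequences were read for members that the tables from RefSeq hold (assembly GRCm38.p6), which gave 32 windows of 250 bases for 26 members. A pair of letter strings was searched on both strands, GGCGCC, a GC-rich element that BMP SMADs are known to bind, and CAGACA, which contains the core of the SMAD3 and SMAD4 element. GGCGCC lay in 10 member windows (31.25%) and in 9.59% of all 32851 windows, and CAGACA in 3 (9.38%) against 17.1%. The windows with GGCGCC belong to 9 members, because overlapping windows of Ltbp4 hold the same match. Member windows were richer in G and C, with a median of 65.4% against 52.4% over all windows, and the part of base composition in those shares was not tested. The stretches below, upstream of the gene models, are shown because they belong to the 2 members with the smallest p among those higher in old tumors (Inhbb and Tgfbr2), the antagonist with the smallest p (Grem1) and the target that depended most on 1 library (Tgfbi), with GGCGCC in capitals.
Inhbb, chr1:119422249-119422498, minus strand: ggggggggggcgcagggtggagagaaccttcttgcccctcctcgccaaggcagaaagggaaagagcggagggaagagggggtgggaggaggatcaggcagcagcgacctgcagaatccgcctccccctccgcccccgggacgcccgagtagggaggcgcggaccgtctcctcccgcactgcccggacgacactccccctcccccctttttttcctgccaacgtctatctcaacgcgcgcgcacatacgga
Tgfbr2, chr9:116175364-116175613, minus strand: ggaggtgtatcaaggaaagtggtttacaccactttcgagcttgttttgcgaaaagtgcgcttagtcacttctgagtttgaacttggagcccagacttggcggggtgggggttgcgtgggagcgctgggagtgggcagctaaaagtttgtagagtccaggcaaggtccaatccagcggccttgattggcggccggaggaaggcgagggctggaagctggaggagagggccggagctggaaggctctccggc
Grem1, chr2:113758649-113758898, minus strand: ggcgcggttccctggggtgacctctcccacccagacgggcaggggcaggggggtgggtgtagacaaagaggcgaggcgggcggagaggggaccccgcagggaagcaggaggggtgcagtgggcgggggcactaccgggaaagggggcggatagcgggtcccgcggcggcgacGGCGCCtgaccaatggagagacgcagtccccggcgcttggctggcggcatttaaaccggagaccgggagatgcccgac
Tgfbi, chr13:56609336-56609522, plus strand: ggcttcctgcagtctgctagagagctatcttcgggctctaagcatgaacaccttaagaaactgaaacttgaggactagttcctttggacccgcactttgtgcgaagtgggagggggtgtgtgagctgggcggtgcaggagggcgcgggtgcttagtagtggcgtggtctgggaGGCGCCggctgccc
GGCGCC ends 73 bases before the RefSeq start site in Grem1 and 72 bases before it in Tgfbi. Neither string occurs in the windows of Inhbb and Tgfbr2. A match of letters is a description and not a binding site, and no match says only that these letters are not in this window.

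Among the ligands, Tgfb1 was the most abundant at 78.1 to 143 TPM and supplied 75.8% to 85.0% of the TPM of the 3 TGF-beta ligand genes in every library. Inhba, which encodes the activin beta A subunit, followed at a mean of 44.2 TPM. Tgfb3 stood at 25.04 TPM, Bmp2 at 9.74 TPM and Bmp4 at 9.51 TPM, while Inhbb, the activin beta B subunit, was at 6.29 TPM and Tgfb2 at 2.22 TPM. The order is per gene length and over all 12 libraries, and the ranges of Bmp2, Bmp4 and Inhbb overlap. Bmp2 made up 37.5% to 75.1% of the joint TPM of Bmp2 and Bmp4 in young tumors (median 50.7%). In old tumors its share was 41.7% to 54.9% (median 44.6%), a range that lay inside the young one.

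Inhbb (chr1:119415465-119422248, GRCm38) had the smallest p of the ligands. Its lowest, median and highest values were 8.83, 12.5 and 18.6 CPM in young tumors and 9.38, 19.3 and 26.6 CPM in old ones. Old tumors 1, 2 and 3 lay above every young library, but Old tumor 4 was below all young libraries except Young tumor 3, so the ages overlapped. The log2 fold change was 0.57 (SE 0.23) with an edgeR adjusted p of 0.187, and 0.44 (SE 0.23) without Old tumor 1. Its share of the TPM of both activin beta subunits was 6.999% to 13.7% in young and 11.8% to 19.95% in old tumors.

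Inhba had 35.6, 44.6 and 58.5 CPM in young and 22.0, 39.7 and 46.3 CPM in old tumors (lowest, median and highest). Old tumor 4 gave the lowest value of all and Young tumor 1 the highest, and most libraries of both ages lay in a shared range. Old over young gave a log2 fold change of −0.29 (SE 0.17, adjusted p = 0.357 by edgeR), and −0.18 without Old tumor 4. Tgfb1, the ligand with the highest level, spanned 139, 159 and 191 CPM in young and 101, 145 and 173 CPM in old tumors, with Old tumor 4 lowest again. Its log2 fold change was −0.19 (SE 0.12, adjusted p = 0.380 by edgeR), and −0.11 without Old tumor 4. For Bmp2 the fold change was −0.28, for Bmp4 0.01 and for Tgfb3 −0.08 on the log2 scale, none past the threshold, and Tgfb3 turned above 0 on TPM values and was at −0.16 without Old tumor 1. Tgfb2 reached 17.03 CPM in Old tumor 1 and at most 7.56 CPM in the other old libraries, and its log2 fold change of 0.47 (SE 0.29) became 0.055 (SE 0.18) without that library.

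**Figure D2:**
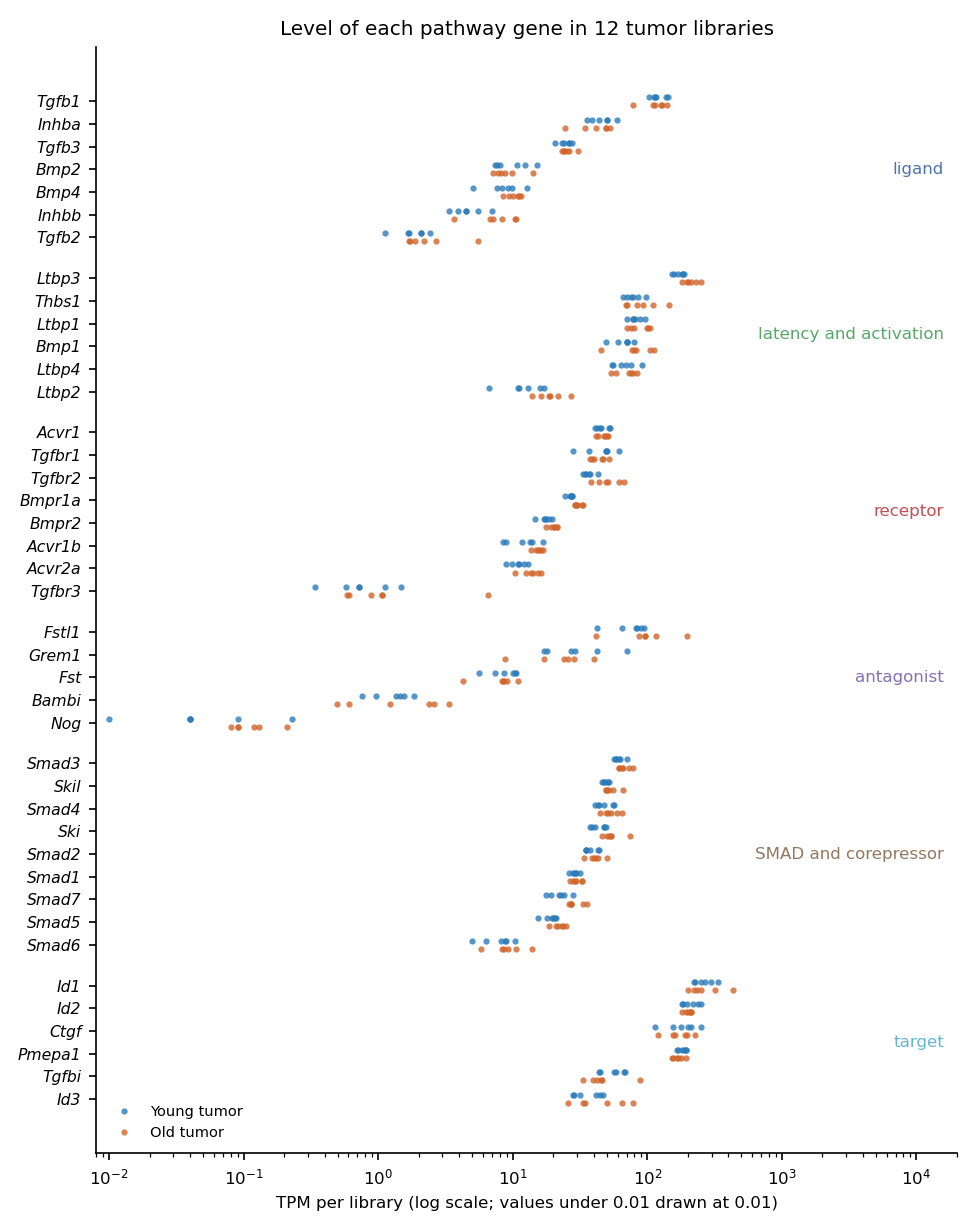
TPM of each of the 41 genes in each library on a log scale, ordered by mean within a role, with young libraries in blue and old ones in orange. Tgfb1, Ltbp3, Pmepa1, Ctgf, Id1 and Id2 sit near or above 100 TPM in nearly all libraries. Tgfb2, Tgfbr3 and Bambi lie mostly near 1 or 2 TPM, and Nog at or near 0.

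All 6 latency and activation genes had log2 fold changes above 0, from 0.03 to 0.37 with a median of 0.14. None passed the threshold, none had an unadjusted p under 0.05, and with the trend of fold change on gene length removed the direction held for 4 of 6, since Ltbp1 and Ltbp4 turned below 0 (Ltbp4 also with limma-voom). The genes of this role are long, with a median exon length of 8527 bases against 4022 for all tested genes. Ltbp3, whose protein binds latent TGF-beta and is secreted with it, held 46.8% to 58.9% of the TPM of the 4 latent TGF-beta binding protein genes. Its values were 530, 595 and 624 CPM in young and 570, 639 and 747 CPM in old tumors (lowest, median and highest). Old tumors 2, 4, 5 and 6 were above every young library and Old tumors 1 and 3 were not. For Ltbp3 the log2 fold change was 0.16 (SE 0.08, adjusted p = 0.264 by edgeR), and 0.035 with the length trend removed.

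Ltbp2, a binding protein of the elastic matrix, had the widest spread of the 6. Young tumors had 23.2, 50.1 and 53.6 CPM and old tumors 46.9, 56.0 and 85.6 CPM. The low end was set by Young tumor 2 alone and the high end by Old tumor 1 alone, and the remaining 10 libraries lay between 43.8 and 61.1 CPM. Its log2 fold change was 0.37 (SE 0.19, adjusted p = 0.286 by edgeR), and 0.22 (SE 0.18) without Old tumor 1 or 0.23 (SE 0.14) without Young tumor 2. Ltbp1 was at 0.045, Ltbp4 at 0.03, the procollagen and chordin protease Bmp1 at 0.19 and Thbs1, a thrombospondin that can activate latent TGF-beta, at 0.13 on the log2 scale. Without Old tumor 1 Bmp1 was at 0.06 (SE 0.16) and Thbs1 at 0.06 (SE 0.17). Other libraries mattered as well, with Bmp1 at 0.31 (SE 0.13) without Old tumor 4 and Thbs1 at −0.019 (SE 0.14) without Old tumor 6. Ltbp4 carries a second gene identifier in the tables, listed at 0 in all libraries.

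Of the 8 receptor genes, 6 were above 0, with a median log2 fold change of 0.13, and with the length trend removed 4 of 8 were, while on TPM values Acvr1 turned above 0. Tgfbr2 (chr9:116084293-116175360, GRCm38) encodes the type II receptor that binds TGF-beta. It had 101, 111 and 127 CPM in young and 110, 137 and 185 CPM in old tumors (lowest, median and highest). Old tumors 1, 2, 3 and 5 exceeded all young libraries, while Old tumors 4 and 6 lay inside the young range. The log2 fold change of 0.36 (SE 0.12) had an edgeR adjusted p of 0.122. Without Old tumor 1 it was 0.27 (SE 0.11), and with the length trend removed 0.24. The type I partner Tgfbr1 ran from 111 to 230 CPM in young and from 131 to 174 CPM in old tumors, with a log2 fold change of −0.21 (SE 0.15), and −0.11 (SE 0.13) without Young tumor 2. Within the 3 TGF-beta receptor genes, Tgfbr2 made up 34.8% to 56.6% of the TPM in young tumors (median 43.5%) and 50.1% to 57.8% in old tumors (median 51.5%). The ranges overlapped, and the highest old share lay above the highest young one.

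The coreceptor Tgfbr3, betaglycan, presents ligand to Tgfbr2. It had the largest estimate of the members, a log2 fold change of 1.01 with an SE of 0.59 (edgeR adjusted p = 0.351). A single library set that value. Old tumor 1 held 24.1 CPM and the other old tumors at most 3.80 CPM, against 1.43 to 5.62 CPM in young tumors, and without it the log2 fold change was −0.12 (SE 0.32). Acvr2a, a type II receptor of activins, had 32.5, 39.1 and 48.0 CPM in young and 36.1, 47.2 and 53.8 CPM in old tumors (log2 fold change 0.21, SE 0.11, adjusted p = 0.272 by edgeR). Old tumors 2 and 5 lay above all young libraries and the rest overlapped with them. Acvr1, a BMP type I receptor and by a small margin the most abundant receptor gene at a mean of 46.6 TPM, had 77.3, 83.6 and 98.1 CPM in young and 71.8, 80.2 and 84.4 CPM in old tumors (log2 fold change −0.12, SE 0.07, adjusted p = 0.372 by edgeR). The ranges of Tgfbr1 and Tgfbr2, at means of 44.7 and 44.1 TPM, overlapped with that of Acvr1. The BMP receptors Bmpr1a and Bmpr2 were both at 0.07 (log2 fold change), with SEs of 0.06 and 0.07, and the activin type I receptor Acvr1b at 0.19 (SE 0.15).

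The antagonists were the most variable role from library to library. The SD of log2 CPM within an age had a median of 0.67 over the 4 tested antagonist genes, against 0.26 over all members and 0.24 over all tested genes, and none of the 4 had an interval within 1.5-fold. Grem1 (chr2:113746164-113758646, GRCm38), a secreted BMP antagonist, had 46.9, 74.6 and 190 CPM in young and 22.0, 61.5 and 95.6 CPM in old tumors (lowest, median and highest). Young tumor 2 was far above the rest at 190 CPM and Old tumor 4 lowest, and the ages overlapped over most of their range. For Grem1 the log2 fold change was −0.65 (SE 0.37, adjusted p = 0.336 by edgeR), and without Young tumor 2 it was −0.30 (SE 0.32, adjusted p = 0.639). Fstl1, a secreted glycoprotein related to follistatin and the most abundant antagonist gene, had 109, 206 and 231 CPM in young and 95.3, 211 and 447 CPM in old tumors. Its medians were close, and Old tumor 1 stood above the next library, at 255 CPM. The log2 fold change was 0.34 (SE 0.29, adjusted p = 0.530 by edgeR), and 0.03 (SE 0.23) without Old tumor 1. Follistatin (Fst), which binds activins, was at −0.22 (SE 0.21) and the decoy receptor gene Bambi at 0.29 (SE 0.42). Without Old tumor 1 they were at −0.34 and −0.025. Fst was at −0.08 (SE 0.17) without Old tumor 5, and Bambi at 0.49 (SE 0.37) without Old tumor 6. The BMP antagonist noggin (Nog) was not tested: it had 0 to 5 counts per young library and 2 to 5 per old library, 26 counts in all, which is too few for a fold change.

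Of the 6 roles the SMADs and corepressors had the smallest median size of log2 fold change, 0.07 regardless of sign, against 0.17 over all tested genes. Values ran from −0.09 to 0.20, none had an unadjusted p under 0.05, and the 95% intervals of all 9 lay between 0.81-fold and 1.45-fold. Signs this close to 0 turned with the scaling, and on TPM values Smad1, Smad2, Smad3, Smad4 and Skil were above 0. Smad3, a receptor SMAD of TGF-beta and activin and the most abundant of the 9 at a mean of 64.6 TPM, had 188, 199 and 235 CPM in young and 191, 195 and 233 CPM in old tumors. The ranges of the ages almost coincided, with 1 high library in each, Young tumor 2 and Old tumor 5. Its log2 fold change was −0.005 (SE 0.07, adjusted p = 0.976 by edgeR). Smad1, a receptor SMAD of the BMP branch, had 53.2, 58.2 and 60.9 CPM in young and 50.2, 53.5 and 58.7 CPM in old tumors (log2 fold change −0.09, SE 0.06, adjusted p = 0.430 by edgeR). The corepressor Ski had 124, 134 and 152 CPM in young and 134, 147 and 215 CPM in old tumors. Old tumor 5 was its single high library, and Old tumor 4 was the other one above all young libraries. The log2 fold change of Ski was 0.20 (SE 0.11, adjusted p = 0.304 by edgeR), and 0.10 without Old tumor 5. The common partner Smad4 was at −0.07, Smad2 at −0.07, Smad5 at 0.08, the inhibitory Smad6 and Smad7 at 0.11 and 0.03 and the corepressor Skil at −0.01.

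Of the 6 target genes, 5 were below 0, with a median log2 fold change of −0.23, and with the length trend removed or on TPM values Id1 turned above 0. None passed the threshold. The 2 with an unadjusted p under 0.05 were Pmepa1 and Id2. Pmepa1 (chr2:173224458-173276533, GRCm38) encodes a membrane protein that TGF-beta induces and that limits receptor SMAD activation. It had 489, 509 and 561 CPM in young and 372, 437 and 487 CPM in old tumors. The highest old library, Old tumor 6, lay just below the lowest young library, Young tumor 4. That gap depended on the TMM scaling. Old tumor 6 held 8818 of 17.75M counts and Young tumor 4 held 11154 of 22.73M, so on library totals alone the ages overlapped. The fold of old over young was 0.84 (95% interval 0.76 to 0.94), a log2 fold change of −0.25 (SE 0.07), with an unadjusted p of 0.0038 and an edgeR adjusted p of 0.077. DESeq2 gave an adjusted p of 0.0172, and the adjusted p over all alternatives ran from 0.0172 to 0.367, the highest on TPM values. On the TPM scale the ages overlapped, with 165 to 194 TPM in young and 152 to 194 TPM in old tumors, and the log2 fold change was −0.11.

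Id2 (chr12:25093799-25097140, GRCm38) belongs with Id1 and Id3 to a family of inhibitors of basic helix-loop-helix factors that BMP signals induce. Its values were 145, 161 and 209 CPM in young and 130, 145 and 157 CPM in old tumors (lowest, median and highest). All old libraries were below the young median, while 3 young libraries, Young tumors 1, 4 and 6, lay inside the old range. The log2 fold change was −0.21 (SE 0.09, adjusted p = 0.206 by edgeR), and −0.14 without Young tumor 5. Id1, the most abundant member at a mean of 272 TPM, had 130, 155 and 187 CPM in young and 104, 130 and 226 CPM in old tumors. Old tumors gave both the lowest value (Old tumor 6) and the highest (Old tumor 5), and the log2 fold change was −0.08 (SE 0.17, adjusted p = 0.820 by edgeR). Id3 was at 0.19 (SE 0.26), at 0.04 without Old tumor 1 and at −0.013 without Old tumor 5. Ctgf, a matricellular protein, was at −0.24 (SE 0.18).

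Tgfbi (chr13:56609523-56639562, GRCm38), a secreted matrix protein named for its induction by TGF-beta, was singled out after its values were seen. It had 76.2, 99.6 and 111 CPM in young and 53.1, 66.6 and 141 CPM in old tumors. Of the old libraries, 5 lay below every young one, at 53.1 to 71.7 CPM, and Old tumor 1 lay above every young one. With all libraries the log2 fold change was −0.33 (SE 0.21, adjusted p = 0.386 by edgeR). Without Old tumor 1 it was −0.61 (SE 0.12, adjusted p = 0.0137 by edgeR), and Tgfbi was then the only member past the threshold, where 6.86% of all tested genes were (1106 genes). Over all alternatives the adjusted p of Tgfbi ran from 0.0137 to 0.541.

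**Figure D3:**
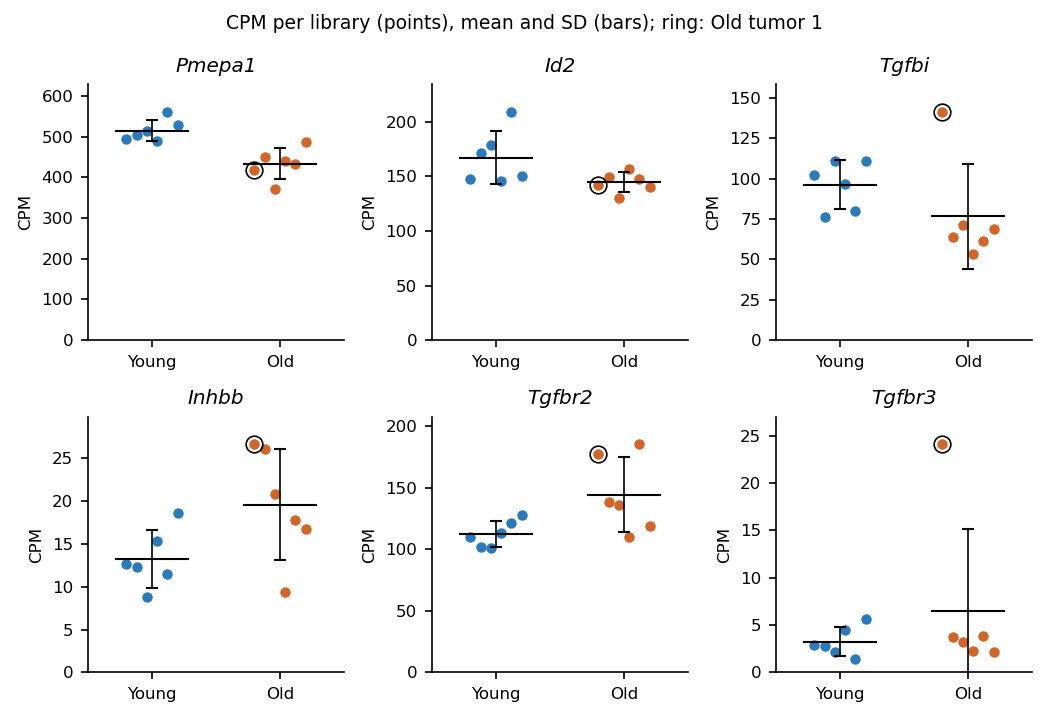
CPM of 6 genes in each library (points), with group means and SD (bars, 6 libraries per age) on axes that start at 0. The ring marks Old tumor 1. The old and young points of Pmepa1 do not overlap on this scale, by a small margin. In Tgfbi and Tgfbr3 the ringed point is the highest of all 12 libraries, at 141 and 24.1 CPM, and the SD bar of old Tgfbr3 is drawn only down to 0.

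The extremes of the members were spread over several libraries, among them the old library with the highest stromal marker level. Old tumor 1 was the highest of 12 for 9 of 40 members (22.5%), against 13.97% of all tested genes, among them Tgfb2, Tgfb3, Ltbp2, Tgfbr3, Fstl1 and Tgfbi. Old tumor 5 was the highest for 9 as well (22.5% against 16.3%), and Old tumor 4 the lowest for 11 (27.5% against 11.6%). Young tumor 2 was the highest for 8 (20% against 14.4%). Old tumor 6 and Young tumor 5 were the highest for 5 each (12.5%, against 6.10% and 9.37%). All 10 fibroblast markers had log2 fold changes above 0 (none past the threshold, median 0.66, and 0.16 without Old tumor 1), as did all 6 myofibroblast and mural markers (none past the threshold, median 0.73, and 0.085 without Old tumor 1) and all 7 endothelial markers (none past the threshold, median 0.57, and 0.19 without Old tumor 1). Mural markers summed to 105 to 158 TPM in young and 87.8 to 619 TPM in old tumors, and endothelial markers to 67.0 to 120 TPM and 76.5 to 284 TPM, with Old tumor 1 highest in both. Without it the old libraries reached 220 TPM of mural and 184 TPM of endothelial markers. No marker of these 3 lists was at or near 0 in all libraries. Other lists moved differently. All 6 tested T and natural killer cell markers were below 0 (median −1.06, and −1.36 without Old tumor 1), with 1 past the threshold (Gzma), and summed to 21.2 to 51.5 TPM in young and 6.17 to 27.5 TPM in old tumors. Both tested B and plasma cell markers were above 0 (median 3.55, and 2.78 without Old tumor 1), with 1 past the threshold (Ighm), and the list summed to 7.15 to 43.5 TPM in young and 17.4 to 1106 TPM in old tumors, where the highest sum without Old tumor 1 was 472 TPM. Of the 7 epithelial markers 5 were below 0 and none passed, and none of the acinar, macrophage, platelet and mesothelial markers passed. Old tumor 1 was highest in macrophage markers too (2435 TPM, with at most 1407 TPM in other old and 1642.5 TPM in young libraries). The same held for platelet markers (81.1 TPM, with at most 45.6 TPM in other old and 43.4 TPM in young libraries). In epithelial markers it was the lowest library, at 4886 TPM. The part of cell content in the member values was not tested.

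**Figure D4:**
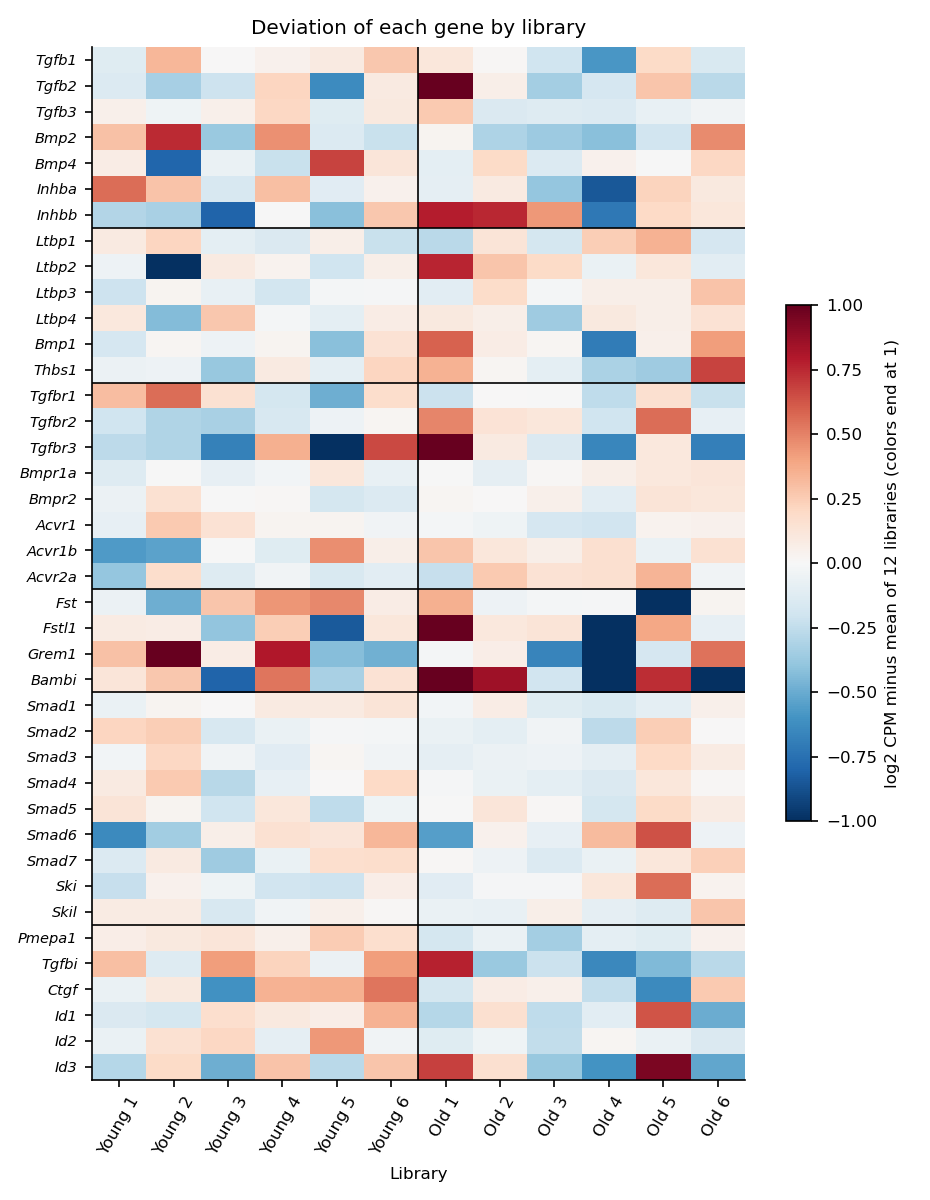
Deviation of log2 CPM from the mean of 12 libraries for each tested gene (rows, grouped by role) and library (columns), with colors ending at 1. Old tumor 1 is red for Tgfb2, Ltbp2, Tgfbr3, Fstl1 and Tgfbi, Old tumor 4 blue for Inhba, Inhbb, Fstl1 and Grem1, and the rows of SMADs and corepressors are pale apart from Smad6 and Ski.

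Some pairs of members are linked as ligand and antagonist, signal and target or feedback partners. Others join genes of a family (Id1 with Id2 or Id3, Inhba with Inhbb) or of different roles (Tgfb3 with Ltbp2, Ctgf with Thbs1). In all, 13 pairs were compared across the 12 libraries. None was related at an adjusted p under 0.05 (permutation test of Pearson's r, Benjamini-Hochberg over the 13 pairs), and 2 had an unadjusted p under 0.05. Id1 and Smad6, a BMP target and an inhibitory SMAD that BMP signals also induce, had the highest r at 0.71 (permutation p = 0.0105, adjusted p = 0.136) with a Spearman rho of 0.76 (permutation p = 0.00652, adjusted p = 0.0848). Within young tumors r was 0.90 and within old tumors 0.74, and without the 2 libraries farthest from the median of Id1 it was 0.69. Ctgf and Thbs1 had an r of 0.61 (permutation p = 0.0339, adjusted p = 0.221) and a rho of 0.62 (permutation p = 0.0348, adjusted p = 0.227), with 0.91 in young and 0.70 in old tumors. That r fell to 0.33 without Old tumor 5 and Young tumor 3, the 2 libraries farthest from the median of Ctgf, so its size depended on them. With 1 library left out it ran from 0.52 to 0.72. Bmp4 and its antagonist Grem1 had an r of −0.54 (permutation p = 0.0684, adjusted p = 0.221) and a rho of −0.27 (permutation p = 0.391, adjusted p = 0.561). The r of that pair was −0.90 in young and 0.41 in old tumors and −0.06 without Young tumors 2 and 5, and a difference between ages was not tested.

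**Figure D5:**
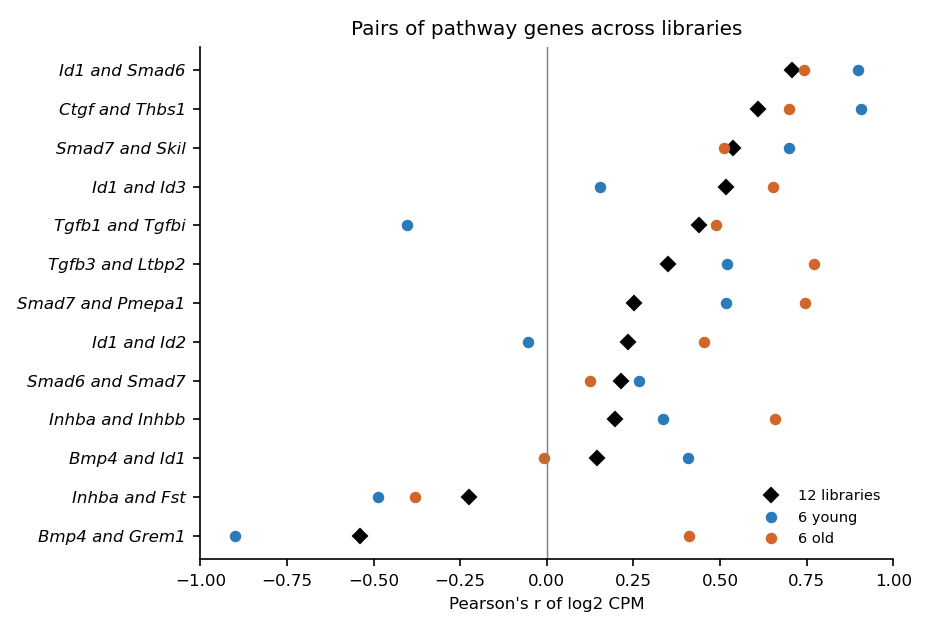
Pearson's r of log2 CPM for 13 pairs of genes over all 12 libraries (diamonds) and within the 6 young (blue) and 6 old (orange) libraries. Id1 and Smad6 have the highest value over all libraries, 0.71, and Bmp4 and Grem1 the lowest, −0.54.

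A wider list held 91 pathway genes outside the members. Of these, 69 were tested and none passed the threshold in edgeR, while 10 had an unadjusted p under 0.05 (14.5%, against 21.1% of all tested genes), 8 higher and 2 lower in old tumors. DESeq2 called 1, against 8.34% of the genes it tested. The median log2 fold change was 0.14, and 0.075 with the length trend removed, against 0.03 and −0.02 over all tested genes. Fkbp1a, which binds TGF-beta type I receptors and keeps them inactive, came nearest, with 432, 497 and 576 CPM in young and 371, 393 and 456 CPM in old tumors. The ages overlapped between 432 and 456 CPM only. Its log2 fold change was −0.31 (SE 0.08, adjusted p = 0.056 by edgeR), and the adjusted p ran from 0.0034 with DESeq2 to 0.193 on TPM values. Without Old tumor 1 it passed in edgeR (adjusted p = 0.031), together with Vasn, a TGF-beta binding membrane protein (log2 fold change −0.30, adjusted p = 0.0499).

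In each of the other lists the gene with the smallest p was higher in old tumors without passing. Gdf3, a ligand, had a log2 fold change of 0.89 (SE 0.31, adjusted p = 0.123 by edgeR) at 1.35 to 2.41 CPM in young and 1.36 to 6.74 CPM in old tumors. Lrrc32, which docks latent TGF-beta on the cell surface, was at 0.64 (SE 0.22, adjusted p = 0.126 by edgeR). Chrd, the BMP antagonist chordin, was at 0.65 (SE 0.27, adjusted p = 0.192 by edgeR), and at 0.39 without Old tumor 5. Eng, the endothelial coreceptor endoglin, was at 0.55 (SE 0.21, adjusted p = 0.151 by edgeR), and at 0.35 without Old tumor 1, and the part of the endothelial markers given above was not tested. Acta2, the smooth muscle actin of myofibroblasts, was at 0.84 (SE 0.43, adjusted p = 0.283 by edgeR). It reached 244 CPM in Old tumor 1 against a median of 54.98 CPM in old and 48.5 CPM in young tumors, and was at 0.10 without Old tumor 1.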

How the data were processed

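RNA from tumor pieces was poly(A) selected and made into strand-specific libraries, per the labels' protocols. Reads were handled with cutadapt 2.3, STAR 2.7.0d, RSEM 1.3.1 and the genome build mm10, per the submitters' processing notes, and the sources used here do not give the annotation or strand setting. For 47643 genes in 12 libraries the deposited values are expected counts and TPM. The expected counts, whole for 86.0% to 88.2% of entries in a library at a tolerance of 0, were rounded to whole numbers. Depth was 17.8M to 24.1M counts per library, and every pair of libraries differed by more than sampling noise (chi-square per degree of freedom at least 15.5).

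Old and young tumors were compared with edgeR 4.0.16 (R 4.3.3) by the quasi-likelihood F test with TMM scaling, filterByExpr and Benjamini-Hochberg adjustment over 16013 genes, two-sided, at an adjusted p under 0.05. Fold changes are old over young. CPM uses TMM-scaled totals, and log2 CPM a prior count of 2. TPM compares levels between genes. Pairs of genes were compared over 12 libraries with 100000 permutations and exactly within an age (scipy 1.17.1). Coordinates and exon lengths are those of GENCODE for GRCm38 (mm10), with lengths for 99.7% of tested genes. Scripts were tested on simulated data.

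The members and lists were chosen with earlier results of these data known. Members with values given in full are, in each role, the 2 with the smallest p and the 1 with the highest mean TPM, and of other pathway genes the 1 with the smallest p in each list. Others were named after their values were seen. Alternatives were scaling by total counts, upper quartile or RLE, the tools DESeq2 1.42.0 and limma-voom with quality weights, limma on log2(TPM + 1) and log2(TPM + 0.1) (limma 3.58.1), no filter and 1 CPM in 6 libraries, a replicate block, removal of the length trend (spline with 4 degrees of freedom), a threshold of 0.1 and libraries left out.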

Additional observations from a re-analysis of the deposited data

Results flagged for a closer look

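In 9 of 80 groups of 6 libraries of 1 age (40 members in 2 ages; 11.25%), the highest or lowest library lay far from the rest of its group by Dixon's criterion. Chance marks about 1 in 20 groups, and over all tested genes 9.43% of groups were marked. Old tumor 1 was the library in 5 of the 9. How many of the groups marked over all tested genes fell to Old tumor 1 is not given here. It was the highest library for 13.97% of all tested genes. It had 17.03 CPM of Tgfb2 (next 7.56 CPM), 62.4 CPM of Tgfb3 (next 50.7 CPM) and 85.6 CPM of Ltbp2 (next 61.1 CPM). It also had 24.1 CPM of Tgfbr3 (next 3.80 CPM) and 141 CPM of Tgfbi (next 71.7 CPM). The same library had the highest fibroblast, mural and endothelial marker levels. It was also the highest in macrophage, platelet and B and plasma cell markers. The part of cell content in these values was not tested.

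Young tumor 2 stood apart for 2 genes, with 23.2 CPM of Ltbp2 (next 43.8 CPM) and 235 CPM of Smad3 (next 205 CPM). Old tumor 3 was low in Ltbp4 at 91.9 CPM (next 123 CPM), and Old tumor 5 was high in Ski at 215 CPM (next 157 CPM).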

How the results depend on the processing

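The count of members past the threshold was 0, and was 1 with DESeq2 and at a threshold of 0.1 (Pmepa1 in both) and 1 without Old tumor 1 and Old tumor 5 (Tgfbi). With 1 library left out it ran from 0 to 1 (Tgfbi, without Old tumor 1). Over all tested genes the count of 362 became 1381 with DESeq2, 977 with limma-voom, 151 with no filter, 111 with the length trend removed, 1256 at a threshold of 0.1, 742 without Old tumor 1 and Old tumor 5 and 2 to 1106 with 1 library left out. The extremes of that range were without Old tumor 3 and without Old tumor 1. Of all calls 35.1% were higher in old tumors, 51.5% with total counts, 85.8% and 87.6% on TPM values with pseudocounts of 1 and 0.1 and 13.5% with the length trend removed. TPM values shift the median of all genes to 0.13 and 0.15, and 22 and 21 of the 40 members lay above those medians. Of the other pathway genes 0 passed, and 1, Fkbp1a, did with RLE scaling, upper-quartile scaling, a filter of 1 CPM in 6 libraries, DESeq2, limma-voom, a threshold of 0.1 and without Old tumor 1 and Old tumor 5, and 0 to 2 with 1 library left out (Fkbp1a without Young tumor 3, Fkbp1a and Vasn without Old tumor 1). For pairs the count of 0 became 0 to 1 with 1 library left out (Id1 and Smad6, adjusted p = 0.0438 without Old tumor 6), and the r of Inhba and Inhbb then ran from −0.19 to 0.33. Bmp2 and Nog, a planned pair, was not run because Nog was too low.

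The replicate numbers are not stated to link libraries of both ages. Deviations of libraries with the same number correlated at −0.23 to 0.14, and 2 of 6 young libraries correlated best with their own number. With the replicate block 1 of all tested genes and 0 members passed.

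The direction of a member's log2 fold change was kept in 899 of 960 combinations of member and alternative, and 18 members kept it in all. The cause of the reversals was not tested, and most began near 0. With the length trend removed came Ltbp1 at −0.099, Ltbp4 at −0.053, Bmpr1a at −0.016, Bmpr2 at −0.13, Smad5 at −0.026, Smad7 at −0.0067 and Id1 at 0.017. With limma-voom came Ltbp4 at −0.051, Bambi at −0.071, Smad3 at 0.014, Skil at 0.044 and Id3 at −0.063, and with total counts Smad3 at 0.026 and Skil at 0.027. On log2(TPM + 1) came Tgfb3 at 0.051, Acvr1 at 0.021, Smad1 at 0.041, Smad2 at 0.099, Smad3 at 0.13, Smad4 at 0.17, Skil at 0.13 and Id1 at 0.014, and on log2(TPM + 0.1) Tgfb3 at 0.053, Acvr1 at 0.022, Smad1 at 0.042, Smad2 at 0.10, Smad3 at 0.13, Smad4 at 0.17, Skil at 0.13 and Id1 at 0.014. Without Old tumor 1 and Old tumor 5 came Tgfb2 at −0.022, Tgfbr3 at −0.19, Fstl1 at −0.069, Bambi at −0.24, Skil at 0.051 and Id3 at −0.27, and of the other pathway genes Acta2 turned to −0.016. With 1 library left out the ranges were Bmp4 from −0.11 to 0.19, Ltbp1 from −0.012 to 0.087, Ltbp4 from −0.049 to 0.097, Thbs1 from −0.019 to 0.22, Tgfbr3 from −0.12 to 1.24, Bambi from −0.025 to 0.49, Smad3 from −0.035 to 0.033, Smad6 from −0.014 to 0.20, Smad7 from −0.022 to 0.074, Skil from −0.068 to 0.031 and Id3 from −0.013 to 0.31. Grem1 kept its direction, from −0.84 to −0.30 (the latter without Young tumor 2). Depth limits Nog. The interval of the fold change lay within 1.5-fold in both directions for 26 of the 40 tested members. The intervals of all other tested members leave changes of 1.5-fold undecided, among them the wide ones of Tgfbr3, Bambi and Grem1.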
